A study of Drosophila melanogaster with 9 samples.

Results

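The cuticle protein genes of adult male *Drosophila melanogaster* were examined in RNA labelled as skeletal muscle, on 9 Affymetrix arrays. Genes were taken by name: the members are all genes whose annotated symbol begins with Cpr or Lcp followed by a digit, with Ccp84, or with Twdl. Of 120 such genes in the annotation release, 100 had a probe set of their own and were measured, out of 11982 genes measured in all. Another 7 were on probe sets shared with another gene, and 13 were on no probe set named here. A gene with several probe sets was represented by the one of highest mean signal, and the members were separated at a mean log2 signal of 6 into 27 bright and 73 dim genes.

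The 9 arrays fell into 3 groups of 3, and the labels state independent biological replicates. The Foxo group carried a UAS-Foxo transgene and the Mnt group a UAS-Mnt transgene, and the labels call the last group control with no further genotype. Foxo is a transcription factor that insulin signalling holds back, and Mnt is a transcriptional repressor that opposes Myc on shared target sites. The labels do not name the driver that directs either transgene, the control genotype or the age at sampling, and they say that flies were collected within 24 hours of eclosion. RNA came from pools of at least 15 male flies per group, and in such bulk RNA fewer cells of a type and less RNA per cell cannot be told apart.

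Insect cuticle is an extracellular layer of chitin fibres and proteins that epidermal cells secrete at each moult, and adult flies go on depositing and hardening it for a time after eclosion. Cpr, Lcp and Ccp84 genes encode proteins with the Rebers and Riddiford chitin-binding sequence, the most common kind of insect cuticle protein. Lcp genes were first described from larval cuticle and Ccp84 genes from a cluster at cytological position 84A, while Twdl genes encode Tweedle proteins, a separate insect family in which mutations of TwdlD alter body shape. Single genes are known to be used at particular stages and in particular regions of the body surface, the tracheae and the foregut and hindgut.

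The transgenes were read first as a check of the labels. The foxo signal was 11.95, 9.52 and 10.22 in the Foxo arrays and 9.52, 9.19 and 9.34 in the Mnt arrays, against 9.42, 9.50 and 9.05 in the control arrays, so Foxo replicate 2 was level with the highest of the arrays without the transgene. The Mnt signal was 9.85, 11.69 and 11.71 in the Mnt arrays and 8.54, 8.41 and 8.50 in the Foxo arrays, against 8.41, 8.57 and 8.45 in the control arrays. Against control, foxo had a log2 fold change of 1.24 in Foxo (limma adjusted p = 0.279) and Mnt one of 2.61 in Mnt (0.450). The labelled tissue was also checked, and 21 of 21 measured sarcomere genes had a mean of at least 6. Of other tissue lists, 9 of 15 epidermis genes, 23 of 25 gut genes, 15 of 26 testis genes and 3 of 13 tracheal genes reached that level. The share over all genes was 62.4%, and of these lists only gut lay above it. Haemocyte genes (12 of 15) and photoreceptor and neuron genes (6 of 9) also lay above that share. Fat body (9 of 15), accessory gland (4 of 15) and ejaculatory duct and bulb genes (1 of 3) lay below it. Among eggshell genes the count was 0 of 15. The mean log2 signal of the testis list was 6.74, 7.69 and 7.29 in the Foxo arrays and 6.39, 4.89 and 7.23 in the Mnt arrays, against 6.79, 5.84 and 4.89 in the control arrays. That of the accessory gland list was 10.02 in Foxo replicate 3, where 14 of 15 genes were highest, and 4.01 to 5.68 in the other arrays.

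Most cuticle protein genes gave a dim signal, and those that did not were spread over families and chromosomal clusters. The bright genes were 22 of 66 Cpr genes, 1 of 7 Lcp genes, 0 of 3 Ccp84 genes and 4 of 24 Twdl genes. In all 27 of 100 members passed the threshold, against 62.4% of all genes. Within clusters only some neighbours were bright. At 47E 3 of 7 members were bright, namely Cpr47Ea, Cpr47Ee and Cpr47Ef, and at 49A 2 of 8, Cpr49Ab and Cpr49Ae. At 65A 2 of 10 were bright, Cpr65Au and Lcp65Aa, and at 62B 2 of 3, Cpr62Bb and Cpr62Bc. The only bright genes that adjoin each other in the protein-coding gene order of Release 6 plus ISO1 MT were the pairs Cpr47Ee with Cpr47Ef and Cpr62Bb with Cpr62Bc. All 8 X-linked members were dim.

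Signals of different probe sets depend on the probes as well as on the transcript, so the values place each gene on the array and do not rank transcripts. Cpr65Au averaged 13.40, Cpr49Ae 11.99, Cpr67B 10.48, Cpr62Bb 10.45 and Cpr47Ef 9.65. Cpr66D (9.01), Cpr100A (8.89) and Cpr73D (8.87) complete the 8 members at or above 8. Another 6 lay from 7 to 8: Cpr97Eb (7.91), Lcp65Aa (7.85), Cpr62Bc (7.41), Cpr49Ab (7.34), TwdlG (7.29) and Cpr47Ee (7.17). The remaining 13 bright genes lay under 7, among them TwdlH, TwdlT and TwdlK. Just above the threshold were Cpr76Ba (6.10), Cpr92A (6.03) and Cpr64Ab (6.01), and just below it Cpr50Cb (5.71), Ccp84Ac (5.67) and TwdlO (5.62).

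**Figure D1:**
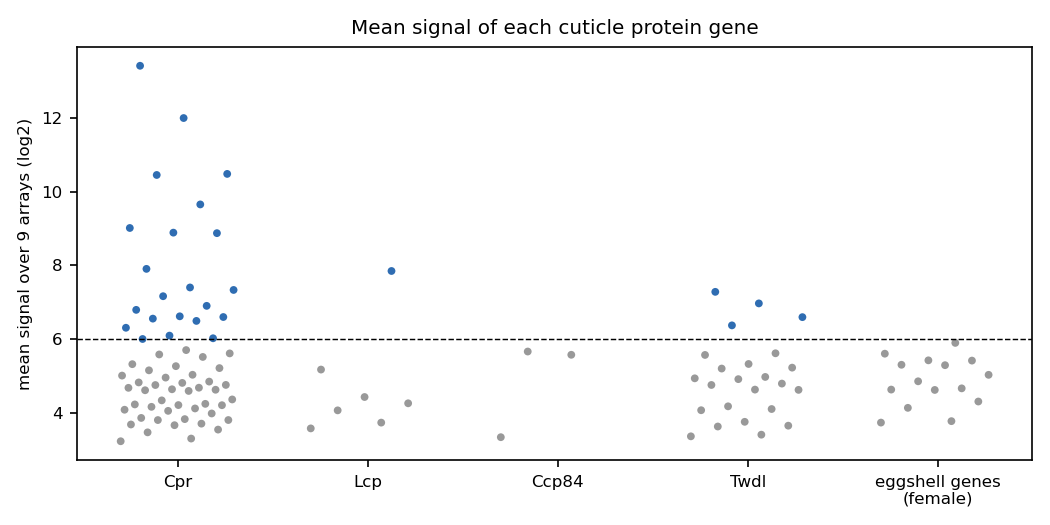
Mean log2 signal over 9 arrays for each cuticle protein gene by family, with the eggshell genes at the right; each point is 1 gene, blue at or above the dashed threshold of 6 and grey below it, and the sideways spread only separates points. In the 3 left columns the Cpr genes run far above the threshold, 1 Lcp gene passes it and no Ccp84 gene does, while 4 Twdl genes pass it and the 15 eggshell genes lie between 3.75 and 5.91.

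The dim members were set beside a list of genes for the eggshell, which only females make. The 15 measured eggshell genes had mean signals of 3.75 to 5.91 in these male samples, with a median of 4.87. The means of all 73 dim members were at or below the upper end of that range. As dim means a mean under 6 and that range ends at 5.91, the cut nearly fixed this placing in advance. Of the dim members, 55 were under 5. In 3 dim members the signal reached 6 in at least 1 array, namely Cpr50Cb, Cpr64Aa and Cpr92F. The last of these stood at 7.42, 3.87 and 3.72 in the Foxo arrays and 3.60, 5.89 and 3.95 in the Mnt arrays, against 4.02, 4.19 and 5.19 in the control arrays. It was singled out after its values were seen.

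The bright cuticle protein genes varied between arrays of the same group. From the lowest to the highest of the 9 arrays, the median range was 0.74 for the 27 bright members against 0.42 for all genes with a mean of at least 6. A range over 1, or 2-fold, was found in 10 of 27 bright members (37.0%) against 12.0% of those genes. Dim members had a median range of 0.43 against 0.52 for all genes under 6.

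Among bright members the widest range belonged to Cpr62Bc, at 9.60, 6.16 and 7.67 in the Foxo arrays and 6.55, 8.44 and 7.13 in the Mnt arrays, against 6.50, 7.24 and 7.36 in the control arrays. Foxo replicate 1 was thus 10.8-fold above Foxo replicate 2 for this gene, and the 3 groups overlapped. Its group averages were 7.81 ± 1.72 in Foxo and 7.37 ± 0.97 in Mnt, against 7.03 ± 0.47 in control (SD, n = 3 each).

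Cpr100A had the same highest, second highest and lowest arrays, with 10.38, 7.71 and 8.58 in Foxo and 8.58, 9.88 and 8.51 in Mnt, against 8.65, 8.998 and 8.70 in control. The difference between Foxo replicates 1 and 2 was 6.40-fold, whereas the control arrays spanned 1.27-fold. Cpr47Ea had 7.76, 5.96 and 6.60 in Foxo and 6.18, 7.56 and 6.87 in Mnt, against 6.38, 6.997 and 6.90 in control. Cpr47Ef had 10.42, 8.83 and 9.32 in Foxo and 9.19, 10.22 and 9.81 in Mnt, against 9.22, 10.004 and 9.85 in control. For each of these genes Foxo replicate 1 was the highest array, Foxo replicate 2 the lowest and Mnt replicate 2 the highest of its group.

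That order was shared by many bright members. Foxo replicate 1 or Mnt replicate 2 was the highest of the 9 arrays for 19 of 27 bright members (70.4%), against 16.2% of all genes with a mean of at least 6. Foxo replicate 2 was the lowest array for 15 of 27 (55.6%), against 19.5% of those genes. Foxo replicate 1 topped its group in 22 bright members (81.5%) and Mnt replicate 2 in 21 (77.8%), against 27.0% and 31.8% of those genes. Both held in 19 bright members (70.4%), against 14.5%. The order at the top was not limited to bright cuticle protein genes. Of the sarcomere genes, 15 of 21 (71.4%) were highest in Foxo replicate 1 or Mnt replicate 2, as were 8 of 13 tracheal genes (61.5%). Epidermis and testis genes were so in 3 of 15 (20.0%) and 1 of 26 (3.85%). Foxo replicate 1 or Mnt replicate 2 was the highest array for 33 of 73 dim members (45.2%) and 8 of 15 eggshell genes (53.3%), against 25.5% of all genes under 6. Foxo replicate 2 was the lowest array for 14 dim members (19.2%) and 8 eggshell genes (53.3%), against 20.5% of all genes under 6. The dim members were thus near the share of all genes for Foxo replicate 2 alone. Foxo replicate 2 or 3 was the lowest array for 42 dim members (57.5%), against 42.2% of all genes under 6. For bright members this held in 19 (70.4%), against 31.5% of all genes with a mean of at least 6. Foxo replicate 1 topped its group in 14 of 15 eggshell genes (93.3%), against 45.7% of all genes under 6. Members measured on the same arrays are not independent of each other, so these counts describe the arrays. Beyond the 27, Cpr92F had the same order at the top, with Foxo replicate 1 11.7-fold above Foxo replicate 2.

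**Figure D2:**
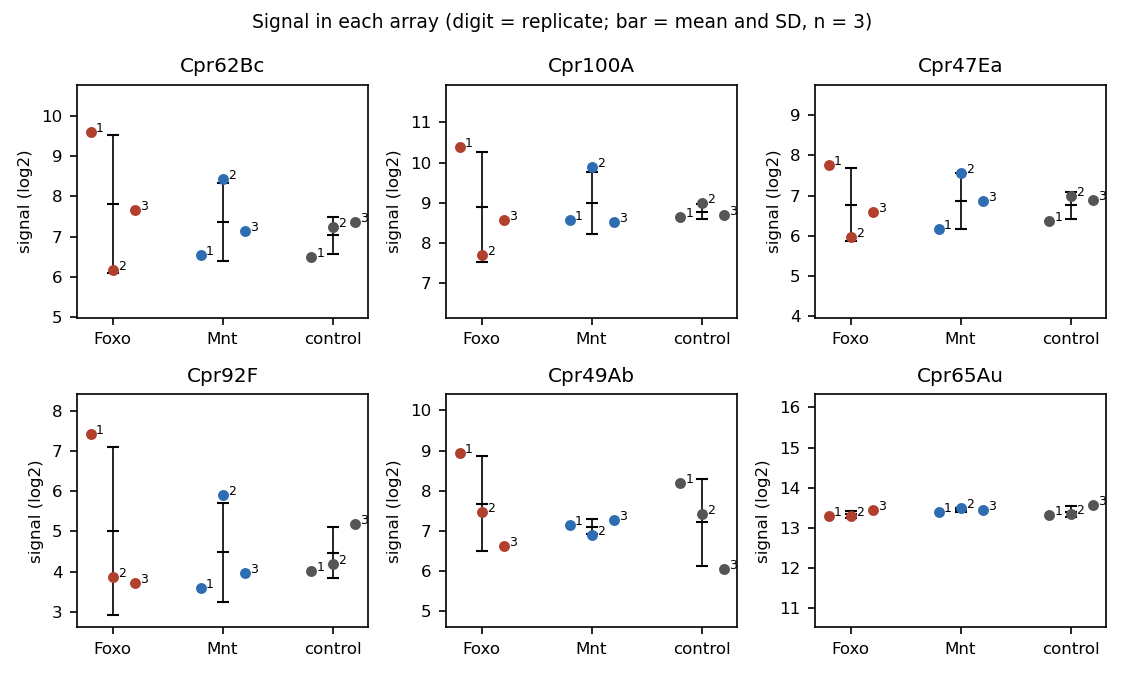
Log2 signal of 6 cuticle protein genes in each array, by group (Foxo, Mnt, control); digits are replicate numbers, bars show the mean and SD of 3 arrays, and every panel spans the same number of log2 units. Cpr62Bc, Cpr100A, Cpr47Ea and Cpr92F are highest in Foxo replicate 1 and second highest in Mnt replicate 2, Cpr49Ab is lowest in control replicate 3, and Cpr65Au stays within 0.28.

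The pattern ran through genes of several clusters at a smaller size. Cpr97Eb had 8.61, 7.45 and 7.82 in Foxo and 7.85, 8.41 and 7.67 in Mnt, against 7.76, 7.83 and 7.79 in control. Cpr62Bb, the neighbour of Cpr62Bc, had 10.85, 9.73 and 10.54 in Foxo and 10.27, 10.82 and 10.62 in Mnt, against 10.002, 10.50 and 10.71 in control. Cpr49Ae spanned 0.95 over the Foxo arrays, with 12.58 in replicate 1 against 11.63 in replicate 2. It had 11.58, 12.25 and 12.24 in Mnt, against 11.69, 12.07 and 12.08 in control, so Mnt replicate 1 was its lowest array. In the 3 control arrays Cpr97Eb spanned only 1.05-fold, while Cpr62Bb spanned 1.63-fold.

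Other bright members departed from that order. Cpr65Au, with a signal far above most of the array, was steady at 13.29, 13.30 and 13.44 in Foxo and 13.41, 13.50 and 13.45 in Mnt, against 13.32, 13.34 and 13.57 in control. Cpr66D was highest in Mnt replicate 1, at 9.53, and lowest in Foxo replicate 1, at 8.68. Cpr49Ab had 8.95, 7.47 and 6.62 in Foxo and 7.15, 6.91 and 7.28 in Mnt, against 8.19, 7.42 and 6.06 in control. Cpr51A had 7.29, 7.33 and 6.56 in Foxo and 6.78, 6.89 and 7.27 in Mnt, against 6.99, 7.12 and 5.94 in control. Both of these last genes had their lowest value in control replicate 3, and their control SDs (1.08 and 0.65) were the largest of the 27.

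**Figure D3:**
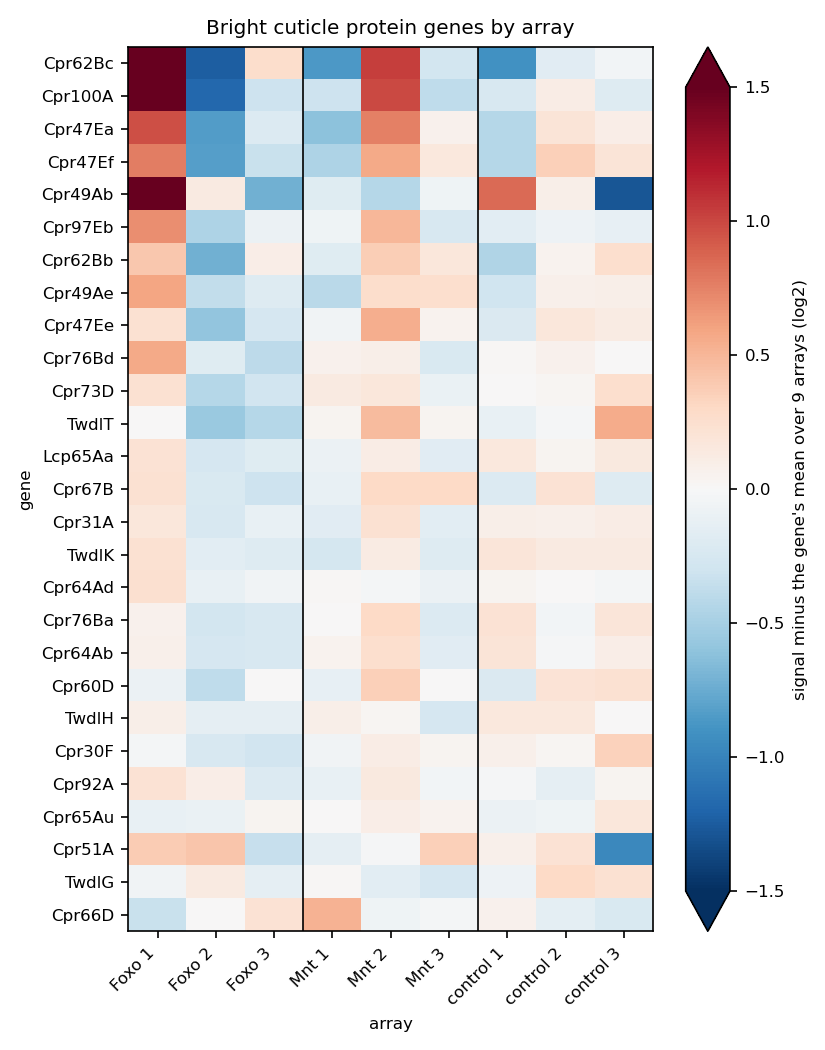
Signal of each of the 27 bright cuticle protein genes (rows) in each of the 9 arrays (columns: Foxo, Mnt, control), as log2 difference from the gene's own mean over the arrays; red is above that mean, blue below, and colours end at 1.5 in either direction. Columns Foxo 1 and Mnt 2 are mostly red, columns Foxo 2 and Foxo 3 mostly blue, and rows Cpr49Ab and Cpr51A are darkest blue in control 3.

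Markers of some other tissues are given beside this order. Of the 27 bright members, 13 (48.1%) were highest in Foxo replicate 1 and 15 (55.6%) lowest in Foxo replicate 2. Of all genes with a mean of at least 6, 6.38% were highest in Foxo replicate 1 and 19.5% lowest in Foxo replicate 2. Among genes under 6 these shares were 9.61% and 20.5%. Foxo replicate 1 topped its group in 27.0% of the former and 45.7% of the latter. Of 15 haemocyte genes, 2 were highest in Foxo replicate 1 and 7 lowest in Foxo replicate 2. Of the 21 sarcomere genes, 13 were highest in Foxo replicate 1 and 9 lowest in Foxo replicate 2, and their log2 summed signal ran from 17.64 to 18.01 in Foxo and 17.69 to 17.94 in Mnt, against 17.65 to 17.79 in control. Tracheal genes were highest in Foxo replicate 1 for 6 of 13, with summed signals of 10.95 to 11.48 in Foxo and 11.18 to 11.41 in Mnt, against 11.17 to 11.30 in control. The tracheal list shares pio (mean 9.86), Gasp (9.24) and kkv (5.15) with the cuticle lists read below, and each was highest in Foxo replicate 1. The epidermis list shares grh, Ddc, e and y with those lists. Of 15 epidermis genes, 1 was highest in Foxo replicate 1 and 6 were lowest in Foxo replicate 2, while Foxo replicate 1 topped its group in 9, and that list summed to 12.95 to 13.12 in Foxo and 13.07 to 13.13 in Mnt, against 13.07 to 13.09 in control. The testis list ran to 14.11 in Foxo and 13.37 in Mnt, against 12.80 in control, with minima of 12.71, 9.97 and 9.92. The part of these tissues in the cuticle gene signals was not tested.

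The first comparison asked which cuticle protein genes differed when Foxo was overexpressed. No cuticle protein gene passed an adjusted p of 0.05 in either direction (limma across 11982 genes with Benjamini-Hochberg adjustment), against 12 of all genes, or 0.100%. At an unadjusted p under 0.05 there were 9 of 100 members, all lower in Foxo, near the 9.51% of all genes that were lower at that level. In either direction 17.8% of all genes were at that level. In the bright members 17 of 27 lay lower in Foxo and the median difference was -0.06 on the log2 scale, against 63.8% lower for all genes with a mean of at least 6 and a median of -0.06 over all genes. The lowest adjusted p among the bright members was 0.276 (limma).

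Among the bright members, Cpr30F had the lowest p. It gave 6.60, 6.39 and 6.34 in Foxo against 6.70, 6.65 and 6.97 in control, so the groups did not overlap. The log2 fold change was -0.33 ± 0.12 (SE), with an adjusted p of 0.276 by limma. TwdlT had a lower mean by more, with 6.60, 6.05 and 6.17 in Foxo against 6.49, 6.58 and 7.16 in control, and the groups overlapped (-0.47 ± 0.23 SE, limma adjusted p = 0.299). Cpr76Ba, Cpr64Ab and Cpr73D were next by p, at -0.27, -0.23 and -0.26, and all of their groups overlapped. The largest values in the other direction were those of Cpr62Bc (0.78 ± 0.82 SE), Cpr49Ab (0.45) and Cpr51A (0.38), and all 3 genes had overlapping groups. Foxo replicate 1 was the highest array for Cpr62Bc and Cpr49Ab, and control replicate 3 the lowest for Cpr49Ab and Cpr51A.

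The median of the bright genes depended on Foxo replicate 1. Without it, the bright median was -0.27, with 25 of 27 lower in Foxo, and the adjusted p stayed above 0.05 for every member (lowest 0.185). Without Foxo replicate 2 the median was 0.016, with 13 of 27 lower. Without Foxo replicate 3 it was -0.11, and without control replicate 1 it was -0.16.

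The dim members leaned one way in Foxo. Of 73, 66 had a lower mean in Foxo than in control, with a median of -0.12, against 60.5% lower and a median of -0.06 for all genes under 6. The eggshell genes had 14 of 15 lower and a median of -0.17. The median of the dim members was -0.014 in a fit that held the mean testis signal as a covariate. Dim members with the lowest p were Cpr5C at -0.33 (limma adjusted p = 0.255), Cpr78E at -0.32 and Lcp65Af at -0.25, both with 0.276. Cpr5C had 4.53, 4.57 and 4.46 in Foxo against 4.84, 4.94 and 4.77 in control. Over all 100 members the Foxo arrays lay wholly below the control arrays in 14 and wholly above them in 1, against 15.4% and 8.24% of all genes.

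**Figure D4:**
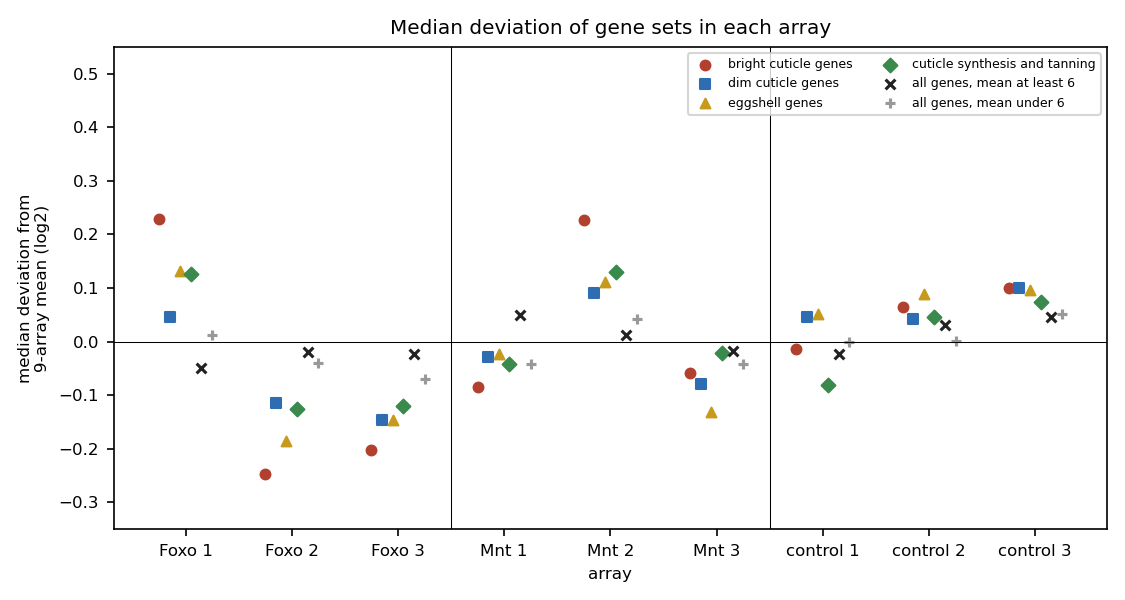
For each array, the median over a gene set of each gene's log2 difference from its own mean over 9 arrays, with Foxo at the left, Mnt in the middle and control at the right; symbols mark bright and dim cuticle protein genes, eggshell genes, cuticle synthesis and tanning genes and all genes on either side of a mean of 6. The bright set lies at 0.23 in Foxo 1 and in Mnt 2 and at -0.25 in Foxo 2. The dim set runs from -0.15 in Foxo 3 to 0.10 in control 3, and the eggshell set from -0.18 in Foxo 2 to 0.13 in Foxo 1.

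The median deviation of the dim members from each gene's own mean was 0.05, -0.12 and -0.15 in the Foxo arrays and -0.03, 0.09 and -0.08 in the Mnt arrays, against 0.05, 0.04 and 0.10 in the control arrays. The eggshell genes had 0.13, -0.18 and -0.15 in the Foxo arrays and -0.02, 0.11 and -0.13 in the Mnt arrays, against 0.05, 0.09 and 0.10 in the control arrays. The bright members had 0.23, -0.25 and -0.20 in the Foxo arrays and -0.08, 0.23 and -0.06 in the Mnt arrays, against -0.01, 0.06 and 0.10 in the control arrays. All 3 sets were lowest in a Foxo array, and both the bright set and the eggshell set were highest in Foxo replicate 1 and Mnt replicate 2.

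The second comparison asked the same of Mnt overexpression. No cuticle protein gene passed the adjusted threshold, and neither did any of the 11982 genes (limma, 0.00%), while 3.54% of all genes had an unadjusted p under 0.05. Of the 27 bright members 12 lay lower in Mnt, with a median difference of 0.04 on the log2 scale, against 47.5% lower for all genes with a mean of at least 6. The dim members had a median of -0.07 with 53 of 73 lower, against 55.3% lower for all genes under 6 and 13 of 15 eggshell genes.

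TwdlG and TwdlK, members of the Tweedle family, had the lowest p among the bright genes in this comparison. TwdlG had 7.30, 7.13 and 7.03 in Mnt against 7.22, 7.59 and 7.51 in control, which overlapped at 1 control array (-0.28 ± 0.13 SE, limma adjusted p = 0.999). TwdlK had 6.12, 6.50 and 6.18 in Mnt against 6.56, 6.51 and 6.51 in control (-0.26 ± 0.15 SE), and was the only bright member whose groups did not overlap. By p the next bright members were TwdlH (-0.16), Cpr66D (0.25) and Lcp65Aa (-0.16). The largest positive values were 0.34 for Cpr62Bc, 0.30 for Cpr51A and 0.25 for Cpr66D.

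Unadjusted p values under 0.05 were found for 3 dim members, all lower in Mnt, against 1.96% of all genes. They were Cpr78Cb (-0.17), Cpr49Aa (-0.39) and Cpr67Fb (-0.26). Cpr49Aa had 4.13, 4.51 and 4.09 in Mnt and 4.42, 3.94 and 4.38 in Foxo, against 4.52, 4.76 and 4.63 in control, so the control arrays lay above both other groups. The Mnt arrays lay wholly below the control arrays in 13 members and wholly above them in 0, against 5.24% and 3.67% of all genes. Of the 13, 12 were dim, where 5.55% of all genes under 6 and 1 of 15 eggshell genes did so. Without Mnt replicate 2 the bright median was -0.11 with 22 of 27 lower, and the dim median was -0.13.

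The comparison of Foxo with Mnt set both overexpression groups side by side and also tests whether their differences from control differ. It gave 0 cuticle protein genes at the adjusted threshold, against 0.134% of all genes (16 of 11982, limma). The bright median was -0.09 with 19 of 27 lower in Foxo, against 61.6% lower for all genes with a mean of at least 6, and the dim median was -0.05 with 44 of 73 lower, against 52.8% for all genes under 6. TwdlT had 6.60, 6.05 and 6.17 in Foxo against 6.64, 7.08 and 6.64 in Mnt, with no overlap (-0.51 ± 0.23 SE, limma adjusted p = 0.375). Cpr30F (-0.22), Cpr47Ee (-0.39), Cpr67B (-0.27) and Cpr73D (-0.23) were next by p. On the other side were Cpr49Ab at 0.57 and Cpr62Bc at 0.44.

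At an unadjusted p under 0.05 there were again 3 members, all dim and lower in Foxo, against 9.40% of all genes in that direction and 13.4% in either. Cpr78E had 4.60, 4.61 and 4.67 in Foxo against 4.89, 4.98 and 4.94 in Mnt (-0.31 ± 0.08 SE, limma adjusted p = 0.228). Its control values were 4.85, 5.02 and 4.97. Lcp65Af and Cpr30B followed at -0.18 and -0.21. In 8 members the Foxo arrays lay wholly below the Mnt arrays and in 1 wholly above, against 13.8% and 4.30% of all genes. Without Foxo replicate 1 the bright median was -0.29 with 26 of 27 lower, and it was 0.036 without Mnt replicate 2 and 0.038 without Foxo replicate 2.

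**Figure D5:**
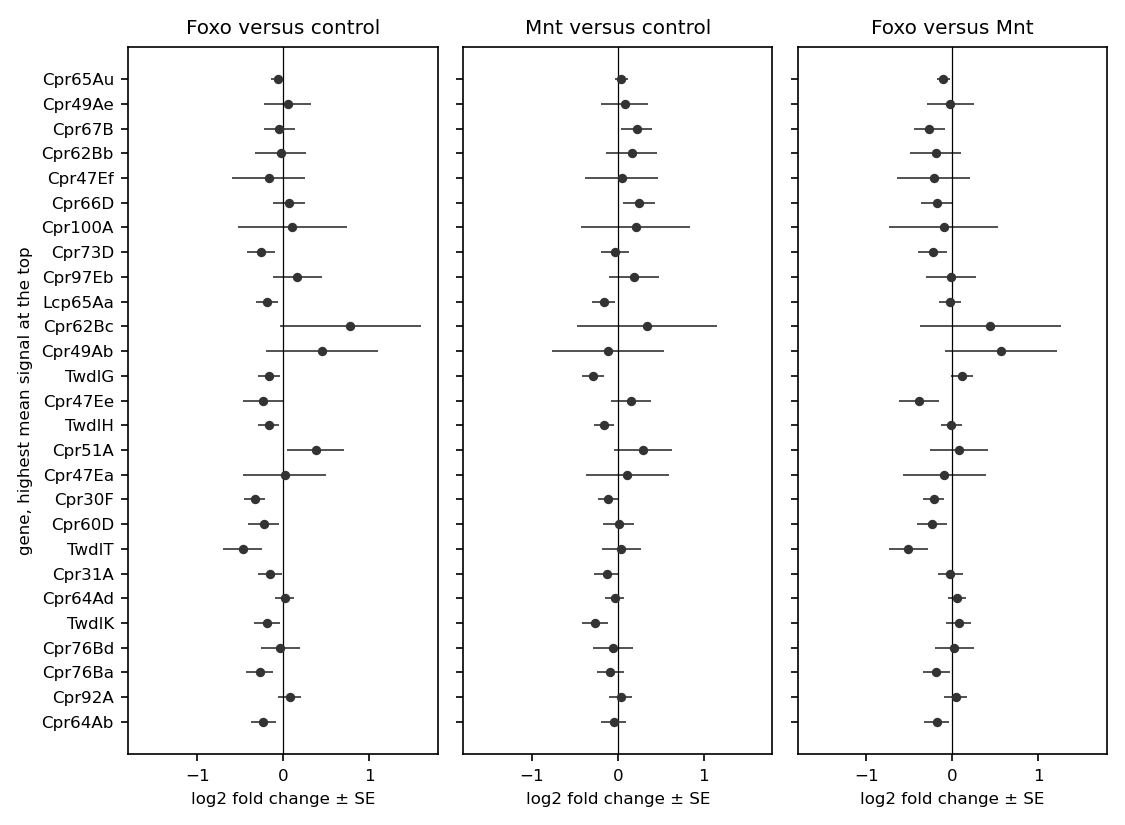
Log2 fold change with its standard error for the 27 bright cuticle protein genes in Foxo against control, Mnt against control and Foxo against Mnt, from one limma fit of 9 arrays; genes run from the highest mean signal at the top, and the vertical line marks no difference. Both genes with the longest bars in the left panel, Cpr62Bc (0.78) and Cpr49Ab (0.45), span a standard error as large as or larger than their value.

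Genes that make, modify and tan the cuticle were read as a further list, along with cuticle proteins outside the name rule and hormone-responsive regulators. None of their members passed the adjusted threshold in any of the 3 comparisons. In Foxo against control, 3 of 60 synthesis and tanning genes were higher and 4 lower at an unadjusted p under 0.05, with a median of -0.05. That is 11.7% in either direction, against 17.8% of all genes. In Mnt against control the count was 1 higher and 0 lower (1.67% against 3.54%), with a median of 0.03, and in Foxo against Mnt 1 higher and 3 lower (6.67% against 13.4%), with a median of -0.05. The lowest p in the first and last of these was that of mmy, which makes the activated sugar from which chitin is built. It gave 9.46, 9.46 and 9.49 in Foxo and 9.33, 9.26 and 9.30 in Mnt, against 9.24, 9.28 and 9.18 in control (0.24 ± 0.05 SE in Foxo against control, limma adjusted p = 0.196). The Foxo arrays lay wholly above those of both other groups for this gene.

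In Mnt against control the list's lowest p was that of Cda5, a chitin deacetylase-like gene, at 0.22 (limma adjusted p = 0.999). Idgf4, a chitinase-like gene with the list's highest mean signal, stood at -0.10 in Foxo and -0.06 in Mnt, both against control. Of 18 measured cuticle proteins outside the name rule, 14 lay lower in Foxo than in control (77.8%), with a median of -0.15, against 62.6% lower and a median of -0.06 for all genes. The lowest p there was that of resilin, an elastic cuticle protein, with 4.97, 4.85 and 5.14 in Foxo against 5.29, 5.14 and 5.53 in control (-0.33 ± 0.15 SE, limma adjusted p = 0.293). The gene frm had that list's lowest p against Mnt, at -0.38 in Foxo against Mnt and 0.21 in Mnt against control. For pio, which encodes a zona pellucida domain protein of the apical matrix, the values were -0.17 in Foxo and 0.00 in Mnt, both against control.

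The 18 regulators gave br, the early ecdysone-response factor Broad, at -0.28 in Foxo against control (limma adjusted p = 0.279), and crc at 0.015. EcR, the ecdysone receptor gene, stood at 0.17 in Mnt against control, and vri at -0.32 in Foxo against Mnt. Foxo replicate 1 was the highest array for 1 of 18 regulators, against 17 of 60 synthesis and tanning genes and 8 of 18 cuticle proteins outside the name rule. Foxo replicate 2 was the lowest array for 7, 24 and 12 of them.

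Shared and repeated probe sets added little. The probe set common to Lcp65Ag1 and Lcp65Ag2 read 7.39, 7.63 and 8.002 in Foxo and 7.64, 7.51 and 7.43 in Mnt, against 7.45, 7.26 and 8.07 in control. In none of the 6 shared probe sets did all Foxo or all Mnt arrays lie above every control array. In 1 of them both lay below, the dim probe set common to Cpr65Ax1 and Cpr65Ax2, with 3.97, 3.88 and 3.85 in Foxo and 3.93, 3.95 and 3.84 in Mnt, against 4.08, 4.15 and 3.99 in control. Cpr47Ef and Lcp65Aa had a further probe set each, with means of 5.14 and 4.42, and their differences had the same sign on both probe sets in all 3 comparisons.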

How the data were processed

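The authors deposited 1 table of log2 signals for 18952 probe sets in 9 arrays, made with RMA per the submitters' processing notes; no version is stated in these sources. RMA corrects background and equalises whole distributions, so a shift shared by most genes cannot be seen. After 183 control probe sets were left out, platform annotation named 1 gene for 13647 probe sets, several for 402 and none for 4720; 13544 of those with 1 gene matched Release 6 plus ISO1 MT by Entrez identifier, and 11982 genes remained. Arrays have no read depth, and 3 arrays per group limit the precision: an exact permutation test of 3 against 3 cannot go below 0.1. One limma 3.58.1 model (R 4.3.3, group means, lmFit, eBayes with intensity trend, 6 residual degrees of freedom) was fitted to all genes, with Benjamini-Hochberg adjustment over all of them. It was checked on simulated data. Members and gene lists were chosen with earlier results of these data known.

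Named genes were foxo, Mnt, all bright members, and in each comparison members past the threshold or else the 5 bright and 3 dim members of lowest p and the 3 bright members with the largest value either way. To these came the 3 members on either side of a mean of 6. For the synthesis and tanning genes, the cuticle proteins outside the name rule and the regulators, the genes of lowest p and highest mean were added. The tissue lists were given mainly as counts and summed signals. In the haemocyte list NimC1 passed the threshold in Foxo against Mnt (-1.07, limma adjusted p = 0.041). Alternatives covered scaling, variance trend, samples, covariates, filters, probe set choice and each array left out. Cpr92F, Cpr64Aa and genes outside this rule in the closing section were named after their values were seen.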

Additional observations from a re-analysis of the deposited data

How the results depend on the processing

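No cuticle protein gene passed the threshold under any alternative, and all 2070 values of single genes under alternatives stayed on the same side of the threshold. Genes called in Foxo against control (12) numbered 28 with each array centred, 4 without the intensity trend, 7 with the testis covariate, 6 without _s_at and _x_at probe sets, 0 with only the 6 arrays compared and 1 without both Foxo replicate 1 and Mnt replicate 2, an alternative added after seeing the data. Those in Foxo against Mnt (16) numbered 31, 5 and 6 under the first 3 of these, 0 with 6 arrays and 1 without both replicates. With the replicate block the calls were 0 and 1. Replicate numbers were not taken to pair the samples, since correlations of same-numbered arrays ran from -0.703 to 0.106. Leaving out 1 array gave 0 to 13 calls in Foxo against control, 0 to 14 in Foxo against Mnt and 0 to 1 in Mnt against control. The bright median ran from -0.27 to 0.016 in Foxo against control and from -0.29 to 0.038 in Foxo against Mnt when 1 array was left out, and was -0.27 in Foxo against control without both replicates and 0.047 with the testis covariate. In Mnt against control it ran from -0.11 without Mnt replicate 2 to 0.12 with members split at a mean of 7. The dim median in Foxo against control was -0.23 after centring and -0.014 with the testis covariate, which in Foxo against Mnt gave 0.094 for bright and 0.046 for dim members. The cause was not tested. Without the dimmest 40% of genes no dim member was left, so that filter gave no dim median.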

Other observations

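Several genes outside the name rule were highest in Foxo replicate 1 and second highest in Mnt replicate 2, as Cpr62Bc and Cpr100A were; they were picked after their values were seen and carry no test. Acp65Aa, an adult cuticle protein gene that adjoins the bright Lcp65Aa, read 9.29, 5.60 and 6.21 in Foxo and 6.00, 8.58 and 6.40 in Mnt, against 6.14, 6.40 and 6.24 in control. Foxo replicate 1 was 12.9-fold above Foxo replicate 2 there, while the control arrays spanned 1.20-fold. Vajk2, one of the cuticle protein genes of the Nimrod gene cluster, read 10.72, 7.41 and 7.74 in Foxo and 7.40, 9.90 and 8.52 in Mnt, against 7.62, 8.60 and 8.58 in control. The neighbouring family member Vajk3 had a 10.1-fold difference between Foxo replicates 1 and 2. The chitin deacetylase serp read 9.03, 7.57 and 7.90 in Foxo and 7.70, 8.73 and 7.97 in Mnt, against 7.92, 8.22 and 8.21 in control, and its partner verm and the chitin synthase kkv differed by 1.96-fold and 1.73-fold between Foxo replicates 1 and 2.

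The low values of Cpr49Ab and Cpr51A in control replicate 3 coincided with low values of some chitinases. Of 10 measured chitinases 4 were lowest in that array and 1, Cht11, was highest there. Cht8 read 9.35, 9.14 and 7.32 in Foxo and 8.19, 8.13 and 8.41 in Mnt, against 8.65, 8.57 and 5.80 in control. Cht9 read 9.28, 9.28 and 7.60 in Foxo and 7.98, 7.11 and 8.36 in Mnt, against 8.22, 8.47 and 5.88 in control. Cht4 was also lowest in that array, at 5.43. Control replicate 3 also had a low testis score, at 4.89, next to 4.89 in Mnt replicate 2, and its gut list had a median deviation of -0.36, with 20 of 25 genes below their own mean. In Mnt replicate 1 the gut list was lower still, at -0.87 with 24 of 25 genes below their own mean. There Cpr49Ab read 7.15, Cht8 8.19 and Cht9 7.98. The gut mucin gene Muc68D read 11.89, 11.60 and 10.05 in Foxo and 10.86, 9.34 and 11.01 in Mnt, against 11.54, 11.23 and 6.19 in control. Whether these values are related was not tested.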
